A study of Mus musculus with 6 samples.

Results

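The mitochondrial carriers of the SLC25 family were followed by their transcripts in mouse bone marrow-derived macrophages. Members were all rows of the deposited gene table whose symbol begins with Slc25a and a number and does not end in -ps, which gave 47 genes of 55401 rows and left out the pseudogene Slc25a5-ps. The table holds 3 libraries labelled wild type (WT) and 3 labelled Mettl3-/- (KO). METTL3 is the enzyme that writes N6-methyladenosine onto messenger RNA, and the comparison asks how transcript levels differ where its gene is reported as lost. The cells of both groups came from C57BL/6 mice, out of the marrow of thigh and shin bones, and were grown for 7 days with 40 ng/mL M-CSF, the growth factor that drives macrophage differentiation, in DMEM with 10% serum. The growth text mentions a later treatment without naming it. The sources used here do not give the knockout allele, any Cre driver, or the age and number of mice. Nothing in the labels ties the replicates to separate mice or cultures. The p-values therefore cover no more than the spread of these libraries, which may be technical.

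SLC25 proteins are small membrane proteins built from repeated units, nearly all of them in the inner mitochondrial membrane. Each lets a particular metabolite, nucleotide or cofactor pass between matrix and cytosol, often in exchange for another. In macrophages they stand between the cytosol and the tricarboxylic acid cycle, whose citrate, itaconate and succinate are tied to the inflammatory state of the cell. Gene Ontology terms in the deposited table place 41 of the 47 members in the mitochondrial inner membrane. The 6 without that term are Slc25a2, Slc25a17, Slc25a27, Slc25a44, Slc25a46 and Slc25a53, of which Slc25a17 carries a peroxisomal term.

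The libraries held 67280390 to 77997742 estimated counts, with 19476 to 19825 genes above 0. Mettl3 itself stood at 2.62, 2.91 and 2.26 FPKM (fragments scaled to annotated exon length and library depth) in WT. In the libraries labelled KO it stood at 2.50, 2.56 and 2.93 FPKM. The log2 fold change of Mettl3 was 0.02 ± 0.11 (SE) with an edgeR adjusted p of 0.930. Its level over the whole gene therefore did not separate the groups, and every direction below is between libraries as labelled. Whether a few exons are deleted, which need not lower this value, cannot be read from whole-gene values and was not tested. Of 8 macrophage markers, all of them detected, edgeR called 3 higher (Csf1r, Fcgr1 and Mertk) and 2 lower (Lyz2 and Adgre1) in the libraries labelled KO. Of all tested genes it called 7.01% higher and 5.67% lower. An unadjusted edgeR p under 0.05 was found for 7 of the 8 markers, beside 26.5% of all tested genes. Csf1r was at 568 to 569.8 FPKM in WT and at 683 to 694 FPKM in the libraries labelled KO, and Lyz2 at 14037 to 14431 and at 5943 to 6066. The 4 globin genes listed as erythroid markers had 0 counts throughout. Summed FPKM of 8 T and NK cell markers was 29.0 to 31.1 in WT and 24.8 to 25.8 in the libraries labelled KO, that of 5 B cell markers 2.03 to 2.15 and 1.62 to 1.82, that of 9 neutrophil markers 60.9 to 66.5 and 51.9 to 62.2, and that of 6 stromal markers 1.70 to 2.17 and 1.8 to 2.02. The T and NK sum was lower through Cd4, at 17.95 to 18.1 FPKM in WT and at 11.2 to 12.1 FPKM in the libraries labelled KO. Of the other 7 markers of that list none was called by edgeR or DESeq2 (1 had an unadjusted edgeR p under 0.05), 6 had estimates above 0, and the median log2 fold change of the list was 0.20. The part of these markers in the carrier values was not tested, and in bulk RNA fewer cells of a type and less RNA per cell cannot be told apart.

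Few carriers differed between the groups beyond the test's threshold, and for most of the others the 95% limits lay within 1.5-fold of no change. Of the 47 members, 41 had enough counts to be tested, 3 passed an adjusted p of 0.05 in the quasi-likelihood test of edgeR (Benjamini-Hochberg adjustment over all 16256 tested genes), and 38 did not. Of the 3, 1 was higher in the libraries labelled KO and 2 were lower. Slc25a29, a carrier of basic amino acids, was higher, and Slc25a5, the main adenine nucleotide translocase of proliferating cells, was among the lower ones. That is 7.32% of the tested members, beside 12.7% of all tested genes called in either direction, 7.01% higher and 5.67% lower. Among genes with a mean of at least 1 FPKM, 2 of 31 members were called, beside 17.6% of all such genes. The 3 FPKM values of each group did not overlap for 13 members (31.7% of those tested), 4 of them higher in the libraries labelled KO and 9 lower. The same 13 members had an unadjusted edgeR p under 0.05, beside 26.5% of all tested genes. Over all tested genes 33.8% did not overlap, 19.1% higher and 14.6% lower. The median log2 fold change of the tested members was -0.04, beside -0.0049 for all tested genes, and the median size of the change was 0.13 beside 0.18. Estimates were below 0 for 25 of the 41 carriers (61.0%) and for 50.7% of all tested genes. Of the 38 carriers not called, 25 had 95% limits within 1.5-fold of no change and 32 within 2-fold. The other 13, of which 7 averaged under 1 FPKM, had a limit beyond 1.5-fold, so these data leave a difference of that size possible. The count depended on the fit. Without WT replicates 1, 2 and 3 in turn edgeR called 2, 2 and 1 carriers beside 7.78%, 7.41% and 7.78% of all genes, and without KO replicates 1, 2 and 3 it called 3, 2 and 2 beside 7.47%, 7.97% and 7.6%. DESeq2 called 5 carriers beside 20% of genes, and edgeR over genes with a mean of at least 1 FPKM called 4 beside 20.7%. The carriers called were 3 with median-of-ratios factors (12.7% of genes), without a filter on low counts (6.84%) and in limma on log2 FPKM with pseudocounts of 0.1 (11.8%) and 1 (11.9%).

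The family spans a wide range of levels. By mean FPKM, 13 members were at 10 or above, 18 between 1 and 10, and 16 under 1. These values were scaled by all annotated exonic bases of a gene, which can exceed the length of its mRNA. Levels and shares of different genes therefore compare only roughly. In WT replicate 1, Slc25a3 had 17469 estimated counts, with 5550 exonic bases and a coding transcript of 1341. Slc25a5 had 23430 estimated counts, with 1646 exonic bases and a coding transcript of 1240. Slc25a5 alone made up 34.6 to 35.1% of the family's summed FPKM in WT and 33.2 to 34.0% in the libraries labelled KO. The 4 highest members, Slc25a5, Slc25a3, Slc25a11 and Slc25a4, held 55.1 to 57.9% in every library. All members together took 0.182 to 0.190% of each library's estimated counts. The order of the genes was nearly the same in both groups, with a Spearman correlation of 0.994 between group means over the 47 members, given as a description. Replicates were close: at a mean of at least 1 FPKM the median coefficient of variation of the carriers was 5.35% in WT and 4.14% in the libraries labelled KO, beside 5.54% and 5.26% for all genes.

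**Figure D1:**
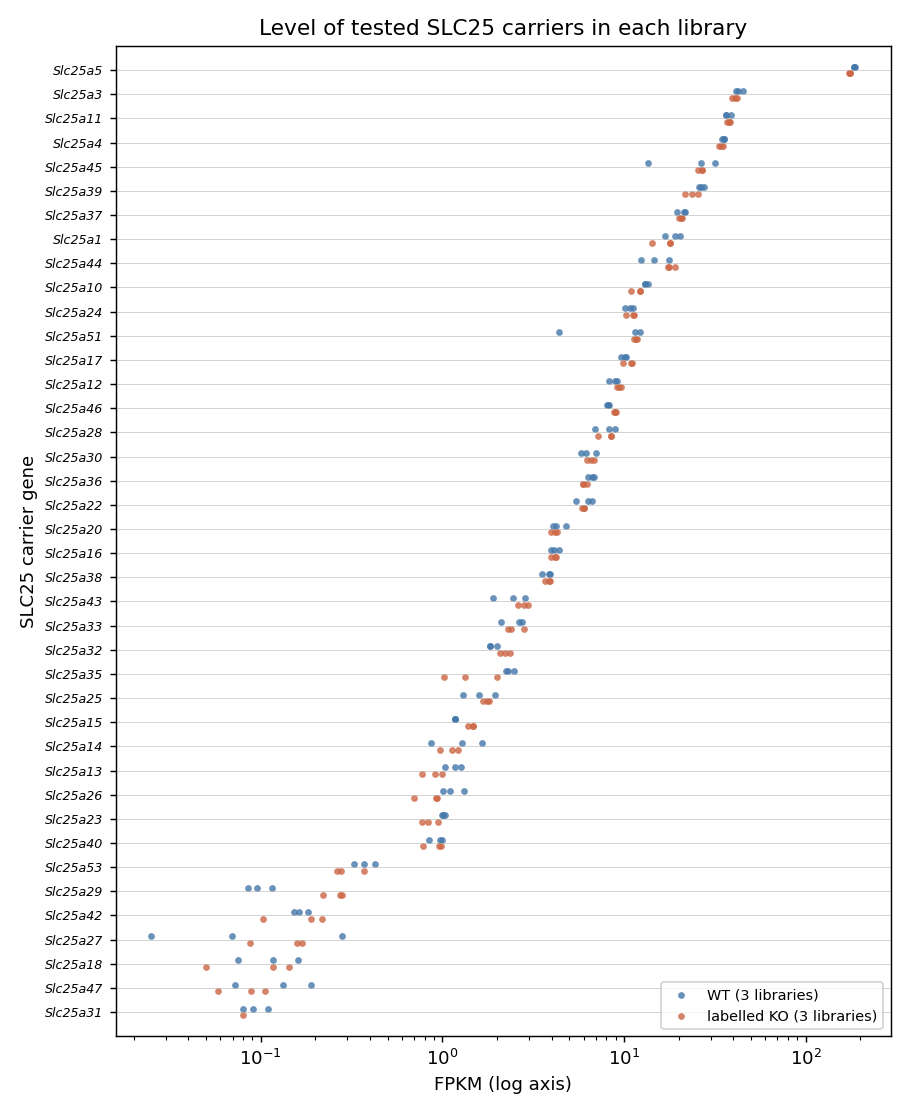
FPKM (log axis) of 40 tested carriers in each of the 6 libraries, sorted by mean level, with blue points for WT and orange points for the libraries labelled KO; the 2 libraries in which Slc25a31 had 0 counts are left out. Slc25a5 stands apart at the top, near 180 FPKM, and 1 WT library lies far below the other 5 for Slc25a45 and for Slc25a51.

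The group of the adenine nucleotide translocases and the phosphate carrier held the largest share of the family's FPKM, at 50.3 to 53.1%. They supply ATP synthase with ADP and phosphate and let ATP out. Of 9 members 7 were tested, with a median log2 fold change of -0.10. Of these edgeR called 1 lower and none higher, beside 5.67% and 7.01% of all tested genes. An unadjusted edgeR p under 0.05 was found for 2 of the 7. Slc25a5 (X:36795651-36798807, plus strand, mm10) was at 188, 184 and 185 FPKM in WT and at 176, 173 and 175 FPKM in the libraries labelled KO. The groups did not overlap, but the gap was small beside the level. The log2 fold change was -0.11 ± 0.019 (SE), with an edgeR adjusted p of 0.0162, and edgeR without WT replicate 1, WT replicate 3 or KO replicate 2 gave adjusted p values of 0.0554, 0.0518 and 0.0537. Of the 31-base words in its exons, 49.4% also occur in other annotated genes, with 30.4% in the processed pseudogene Gm5560 and 26.7% in Gm5529, so the split of reads among these copies makes its value uncertain. Gm5560 was listed at 1.43 to 1.77 FPKM in WT and at 1.48 to 1.87 FPKM in the libraries labelled KO, and Gm5529 at 0.851 to 0.866 and 0.810 to 1.12.

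The mRNA and promoter of Slc25a5 are shown because it has the family's highest FPKM and is among its called genes. GGACT is the most common core of the sequence that METTL3 methylates, and the annotated coding transcript of Slc25a5 holds 2 copies. The first lies in the coding part and the second 193 bases after the start of the stop codon. Capitals mark GGACT in these windows.
Slc25a5 coding site: ccttcgccaaGGACTtcttggccgg
Slc25a5 3′ site: aataatgatgGGACTcaattatatt
In the promoter (RefSeq, GRCm38.p6, chrX:36795347-36795646, plus strand), capitals mark GGGCGG, the GC box bound by SP1 and its relatives, on either strand.
Slc25a5 promoter: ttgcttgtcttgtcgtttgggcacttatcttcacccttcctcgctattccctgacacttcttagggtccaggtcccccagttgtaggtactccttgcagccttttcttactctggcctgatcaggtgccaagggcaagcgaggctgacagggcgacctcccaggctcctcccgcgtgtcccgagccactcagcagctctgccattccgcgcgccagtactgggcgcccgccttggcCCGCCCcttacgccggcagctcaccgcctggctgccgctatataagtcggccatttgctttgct
This window holds 1 GC box, read on the reverse strand, 18 CpG dinucleotides and 61.0% G and C.

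Other exchangers of this group did not pass the test. Slc25a3, which carries phosphate and copper, was at 41.6, 45.3 and 42.7 FPKM in WT and at 39.2, 40.9 and 42.1 FPKM in the libraries labelled KO, with overlapping groups and an edgeR adjusted p of 0.193. Slc25a4, the translocase typical of heart and muscle, was at 34.9, 35.6 and 35.5 FPKM in WT and at 34.5, 35.2 and 33.4 FPKM in the libraries labelled KO. The FPKM of Slc25a5 was 5.19 to 5.39 times that of Slc25a4 in WT and 4.93 to 5.25 times in the libraries labelled KO, and the ranges overlap. Slc25a31, the translocase known from testis, was at 0.0904, 0.109 and 0.0794 FPKM in WT. It had 0 counts in KO replicates 1 and 3 and 0.0802 FPKM in KO replicate 2, with at most 18 counts in any library. Its edgeR adjusted p was 0.476, and it passed only without KO replicate 2 (edgeR adjusted p 0.0481), where the remaining libraries labelled KO had no counts. The calcium-regulated carriers that exchange ATP-Mg for phosphate were led by Slc25a24, at 10.1 to 11.2 FPKM in WT and at 10.3 to 11.4 FPKM in the libraries labelled KO. Slc25a23 was at 1.0 to 1.03 and 0.773 to 0.951 FPKM, with no overlap and an edgeR adjusted p of 0.167, and Slc25a25 at 1.3 to 1.94 and 1.67 to 1.8 FPKM. Slc25a41 and Slc25a54 had 0 counts in all 6 libraries. A count of 0 allows up to 3 counts, or 0.0385 to 0.0446 CPM (counts scaled to library depth) in these libraries, for counting error only.

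The carriers of di- and tricarboxylates, aspartate and glutamate connect the cycle with the cytosol and include both arms of the malate-aspartate shuttle. None of 7 tested members of 8 was called by edgeR or DESeq2, with 2 below an unadjusted p of 0.05 in edgeR (Slc25a10 and Slc25a13), and their median log2 fold change was -0.16. Slc25a11, the 2-oxoglutarate and malate carrier, led at 36.3, 38.8 and 36.4 FPKM in WT and at 36.7, 38.2 and 37.7 FPKM in the libraries labelled KO. The groups lie on top of each other, and the 95% limits of the log2 fold change were -0.10 and 0.10. Slc25a1, which exports citrate for fatty acid and sterol synthesis, was at 19.1, 16.9 and 20.4 FPKM in WT and at 14.3, 18 and 18 FPKM in the libraries labelled KO (edgeR adjusted p 0.377). Slc25a10, the dicarboxylate carrier that moves malate and succinate, was at 13, 13.6 and 13 FPKM in WT and at 12.3, 11.0 and 12.2 FPKM in the libraries labelled KO. Its groups did not overlap, with a log2 fold change of -0.18 ± 0.055 (SE) and an edgeR adjusted p of 0.0898. The glutamate carrier Slc25a22 was at 5.48 to 6.68 and 5.85 to 6.01 FPKM, while its relative Slc25a18 had 9 to 25 counts. Slc25a21, the oxodicarboxylate carrier, had 0 counts in every library.

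Slc25a12 and Slc25a13 encode aralar and citrin, alternative forms of the aspartate-glutamate carrier. Slc25a12 was at 8.91, 9.19 and 8.27 FPKM in WT and at 9.17, 9.59 and 9.36 FPKM in the libraries labelled KO. Slc25a13 was at 1.04, 1.17 and 1.26 FPKM in WT and at 0.999, 0.913 and 0.775 FPKM in the libraries labelled KO, with an edgeR adjusted p of 0.127. Neither was called alone. Their FPKM ratio was 8.58, 7.82 and 6.57 in WT and 9.17, 10.5 and 12.1 in the libraries labelled KO, so that every library labelled KO lay above every WT library. The means were 7.66 ± 1.02 and 10.6 ± 1.46 (SD, n = 3 each), with an exact two-sided permutation p of 0.1, the smallest that 3 against 3 libraries allow, and 0.8 after Benjamini-Hochberg adjustment over the 8 ratios of related carriers. The other 7 ratios overlapped between the groups. The size of a ratio also depends on the exonic bases of both genes, such as 2756 for Slc25a39 and 8386 for Slc25a40. These lengths are the same in every library. The ratio was 2.36 to 3.14 and 2.37 to 2.92 for the mitoferrins Slc25a37 over Slc25a28, 26.8 to 32.7 and 22 to 32.7 for the glutathione carriers Slc25a39 over Slc25a40, and 9.99 to 11.2 and 10.8 to 14.5 for Slc25a24 over Slc25a23.

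**Figure D2:**
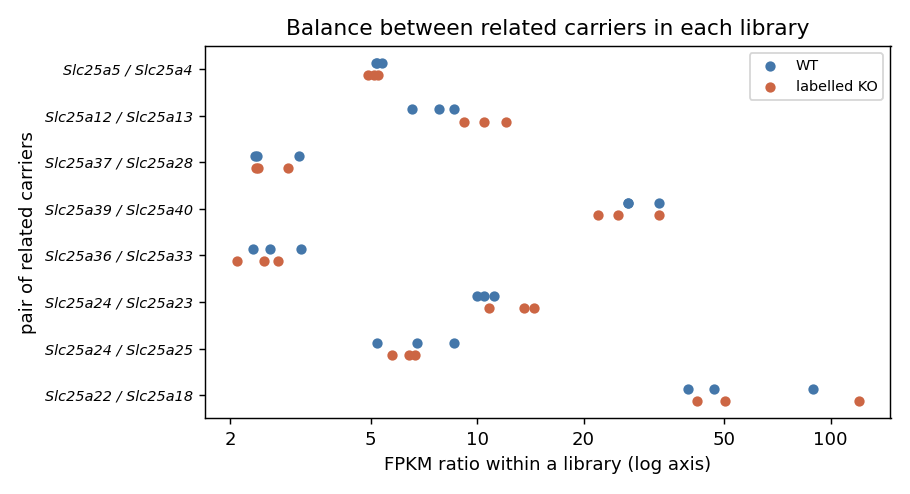
FPKM ratio (log axis) of 8 pairs of related carriers within each library, with blue points for the 3 WT libraries and orange points for the 3 labelled KO. Only for Slc25a12 over Slc25a13 do the groups separate, at 6.57 to 8.58 against 9.17 to 12.1.

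Among the carriers of amino acids, ornithine, carnitine and glycine, 7 of 9 were tested, with a median log2 fold change of 0.13. Of these edgeR called 1 higher and none lower, beside 7.01% and 5.67% of all tested genes. An unadjusted edgeR p under 0.05 was found for 2 of the 7. Slc25a29 (12:108825873-108835883, minus strand, mm10) transports basic amino acids, arginine and lysine among them. It was at 0.0952, 0.0848 and 0.115 FPKM in WT and at 0.273, 0.220 and 0.282 FPKM in the libraries labelled KO. All 3 libraries labelled KO lay above all WT libraries, at a level low in both groups. The log2 fold change was 1.37 ± 0.30 (SE), with an edgeR adjusted p of 0.0306 and 17 to 65 estimated counts per library. With each library left out in turn the edgeR adjusted p was 0.0570 to 0.108, so every library was needed for the call. DESeq2 gave no adjusted p for it. Gene counts from 1 to 20 come in steps here: 36.9 to 40.4% of them were multiples of 4, where an even spread gives 25%. Of the counts of Slc25a29, only those of WT replicates 1 and 2 (19 and 17) lie in that range, and neither is a multiple of 4.

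The sequences of Slc25a29 are shown as those of the member that rose. Its coding transcript holds 3 copies of GGACT, 2 in the coding part and 1 located 132 bases after the start of the stop codon.
Slc25a29 first coding site: gccactaatgGGACTcaccttcatc
Slc25a29 second coding site: agggctccctGGACTgcctggtgca
Slc25a29 3′ site: cgtaaaatggGGACTcctcctcaga
Its promoter (RefSeq, GRCm38.p6, chr12:108835827-108836126, minus strand) also holds the deposited start of another carrier, Slc25a47, which runs in the opposite direction with 162 bases between the genes. Capitals mark GGGCGG on either strand.
Slc25a29 promoter: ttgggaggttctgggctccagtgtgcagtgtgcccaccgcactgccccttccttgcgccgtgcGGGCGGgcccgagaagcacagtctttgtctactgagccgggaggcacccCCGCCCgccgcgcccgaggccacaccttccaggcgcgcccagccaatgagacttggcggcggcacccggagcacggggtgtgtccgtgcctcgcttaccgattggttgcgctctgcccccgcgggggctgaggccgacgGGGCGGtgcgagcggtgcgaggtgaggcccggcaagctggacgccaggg
This window has 3 GC boxes, 32 CpG dinucleotides and 72.3% G and C. Slc25a47, known from liver, was at 0.0721, 0.190 and 0.133 FPKM in WT and at 0.0578, 0.0882 and 0.105 FPKM in the libraries labelled KO. Its groups overlapped, with a log2 fold change of -0.69 ± 0.48 (SE) and an edgeR adjusted p of 0.436.

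Slc25a15, which brings ornithine into mitochondria for the urea cycle and polyamine pathways, lay just outside the threshold. It was at 1.18 FPKM in all 3 WT libraries and at 1.47, 1.39 and 1.48 FPKM in the libraries labelled KO, with no overlap. The log2 fold change was 0.28 ± 0.072 (SE) with an edgeR adjusted p of 0.0518. It passed in DESeq2 (adjusted p 0.0461) and in edgeR over genes with a mean of at least 1 FPKM (adjusted p 0.0390). It did not pass in edgeR without a filter on low counts (adjusted p 0.0948), with any 1 library left out (0.0890 to 0.151) or in limma (0.0713 and 0.0920). Slc25a20, which exchanges carnitine and acylcarnitine for fatty acid oxidation, was at 4.05 to 4.82 and 3.95 to 4.29 FPKM, and Slc25a38, the glycine carrier that serves heme synthesis, at 3.53 to 3.91 and 3.68 to 3.94 FPKM. Slc25a44, the branched-chain amino acid carrier, was at 17.7, 14.6 and 12.4 FPKM in WT and at 17.7, 19.1 and 17.6 FPKM in the libraries labelled KO. WT replicate 1 lay among the libraries labelled KO, and without it the edgeR adjusted p was 0.0470 instead of 0.230. Slc25a2, the second ornithine carrier, had at most 6 counts, and Slc25a48, a choline carrier, had none.

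**Figure D3:**
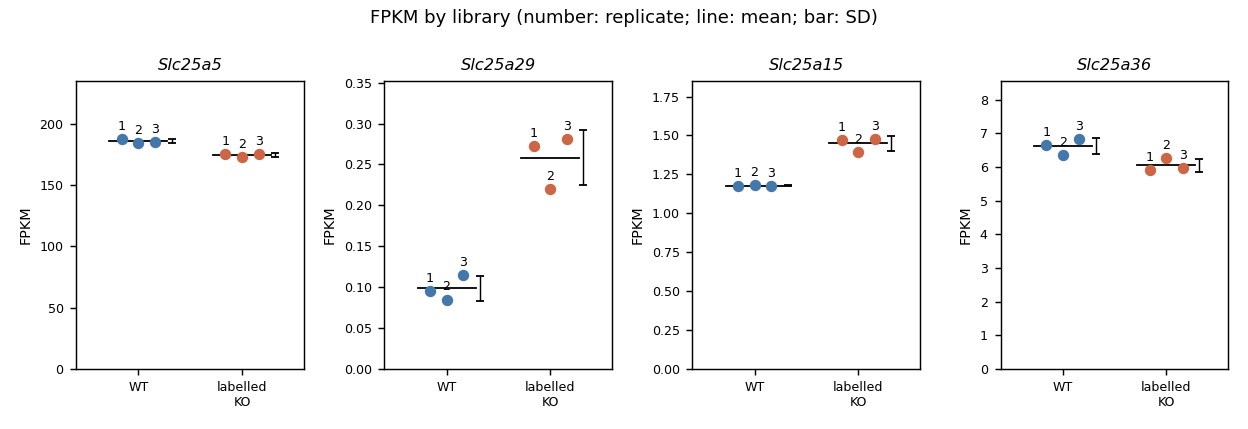
FPKM of Slc25a5, Slc25a29, Slc25a15 and Slc25a36 in each library, numbered by replicate, with the group mean as a line and the SD of 3 libraries as a bar; every axis starts at 0. The groups are apart for all 4 genes, with a wide gap for Slc25a29 and narrow ones for Slc25a5 and Slc25a36.

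Carriers of nucleotides and cofactors bring the building blocks of mitochondrial DNA, RNA and coenzymes into the matrix. Slc25a36, a pyrimidine nucleotide carrier, was at 6.66, 6.37 and 6.84 FPKM in WT and at 5.92, 6.26 and 5.96 FPKM in the libraries labelled KO. Its groups did not overlap, the edgeR adjusted p was 0.0775, and it passed in DESeq2 (adjusted p 0.0477) and in edgeR over genes with a mean of at least 1 FPKM (adjusted p 0.0474). It did not pass in edgeR with any 1 library left out (adjusted p 0.0901 to 0.203) or in limma (0.159 and 0.164). Its relative Slc25a33 was at 2.10 to 2.74 and 2.29 to 2.83 FPKM. Slc25a26 takes S-adenosylmethionine, the methyl donor that METTL3 also uses, into mitochondria. It was at 1.10, 1.31 and 1.01 FPKM in WT and at 0.697, 0.932 and 0.919 FPKM in the libraries labelled KO, without overlap, with a log2 fold change of -0.44 ± 0.16 (SE) and an edgeR adjusted p of 0.140. Slc25a32, linked to folate and FAD transport, was at 1.84 to 1.99 FPKM in WT and at 2.08 to 2.36 FPKM in the libraries labelled KO, also without overlap (edgeR adjusted p 0.135). Slc25a17, the peroxisomal member, was at 9.64 to 10.3 and 9.85 to 11.0 FPKM. Slc25a16 and Slc25a42, linked to coenzyme A, were at 3.94 to 4.39 and 3.97 to 4.21 FPKM and at 0.153 to 0.182 and 0.103 to 0.217 FPKM.

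In 2 abundant carriers a single WT library set the spread. Slc25a45 was at 26.7, 13.6 and 31.9 FPKM in WT and at 25.6, 27.0 and 27.0 FPKM in the libraries labelled KO, so WT replicate 2 lay far below the other 5. Slc25a51, the mitochondrial NAD carrier, was at 12.3, 11.6 and 4.40 FPKM in WT and at 11.9, 11.4 and 11.6 FPKM in the libraries labelled KO, so here WT replicate 3 was low. The lowest estimated counts were 2876 for Slc25a45 and 1866 for Slc25a51, far from the counting limit. The log2 fold change of Slc25a45 was 0.13 with all libraries and -0.16 without WT replicate 2, and that of Slc25a51 was 0.29 with all libraries and -0.05 without WT replicate 3. With a criterion chosen after these values were seen, 1 library under 0.6 times the lowest of the other 5, these were 2 of the 20 tested carriers with a mean of at least 5 FPKM. Of all 6284 such genes, 127 (2.02%) met it, 17 of them through WT replicate 2 and 24 through WT replicate 3.

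**Figure D4:**
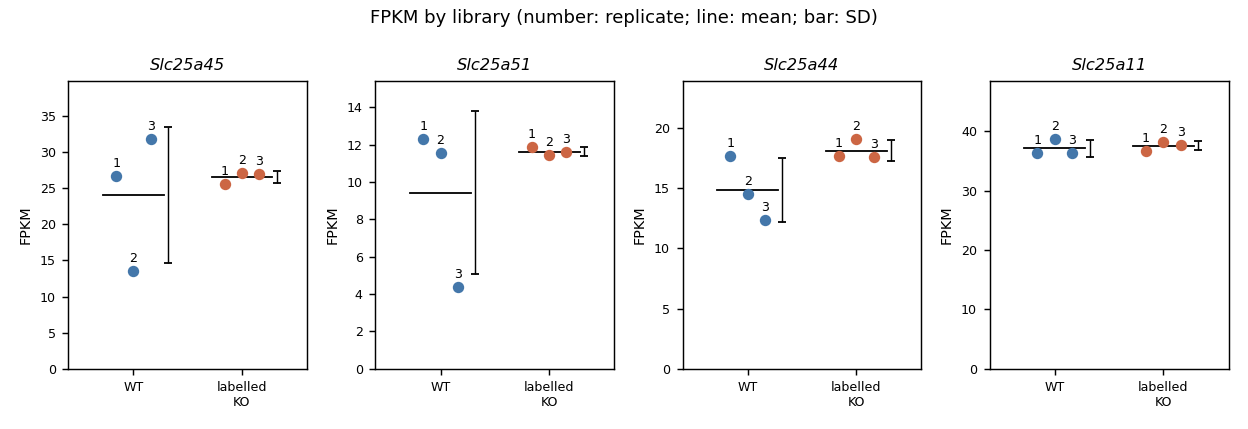
FPKM of Slc25a45, Slc25a51, Slc25a44 and Slc25a11 in each library, numbered by replicate, with the group mean as a line and the SD of 3 libraries as a bar; every axis starts at 0. WT replicate 2 is low for Slc25a45 and WT replicate 3 for Slc25a51, while the 6 libraries of Slc25a11 lie between 36.3 and 38.8.

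The iron and glutathione carriers held 9.89 to 10.7% of the family's FPKM, and edgeR and DESeq2 called none of the 4 (Slc25a39 alone had an unadjusted edgeR p below 0.05). Slc25a39, which imports glutathione, was at 27.5, 26.7 and 26.0 FPKM in WT and at 23.8, 25.6 and 21.7 FPKM in the libraries labelled KO. The groups did not overlap, with a log2 fold change of -0.19 ± 0.064 (SE) and an edgeR adjusted p of 0.113. Its relative Slc25a40 was at 0.840 to 0.999 and 0.784 to 0.987 FPKM. The mitoferrins, which bring in iron for heme and iron-sulfur clusters, showed overlapping groups. Slc25a37 was at 19.6 to 21.6 FPKM in WT and at 20.1 to 21 FPKM in the libraries labelled KO, and Slc25a28 at 6.90 to 8.98 and 7.20 to 8.54 FPKM.

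Relatives of the uncoupling proteins and members without a settled substrate were not called by edgeR, with 2 of 7 tested (Slc25a35 and Slc25a46) below an unadjusted p of 0.05. Slc25a30 was at 6.20, 5.77 and 6.98 FPKM in WT and at 6.86, 6.26 and 6.59 FPKM in the libraries labelled KO, and Slc25a14 at 0.869 to 1.66 and 0.966 to 1.23 FPKM. Slc25a27 ranged from 0.0249 to 0.279 FPKM within WT alone. Slc25a46, an outer membrane relative involved in mitochondrial shape, was at 8.13, 8.06 and 8.26 FPKM in WT and at 8.96, 9.01 and 8.86 FPKM in the libraries labelled KO, with no overlap (log2 fold change 0.12 ± 0.034 SE, edgeR adjusted p 0.0792). Slc25a35 was at 2.29, 2.47 and 2.24 FPKM in WT and at 2.0, 1.02 and 1.33 FPKM in the libraries labelled KO, an estimate of -0.70 ± 0.23 (SE) with an edgeR adjusted p of 0.112. It passed in DESeq2 (adjusted p 0.0219) and in edgeR without KO replicate 1 (adjusted p 0.0189). With any other library left out the edgeR adjusted p was 0.187 to 0.257, and in limma it was 0.110 and 0.120. The gene Rangrf, on the opposite strand, covers 31.3% of its exonic bases and was at 0.0643 to 0.373 FPKM in WT and at 0.256 to 0.657 FPKM in the libraries labelled KO. Without a stated strand setting for the counting, reads from the shared bases cannot be told apart by strand. Slc25a43 and Slc25a53 overlapped between the groups, at 1.9 to 2.84 and 2.62 to 2.95 FPKM and at 0.326 to 0.426 and 0.264 to 0.370 FPKM. Slc25a34 had at most 10 counts.

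**Figure D5:**
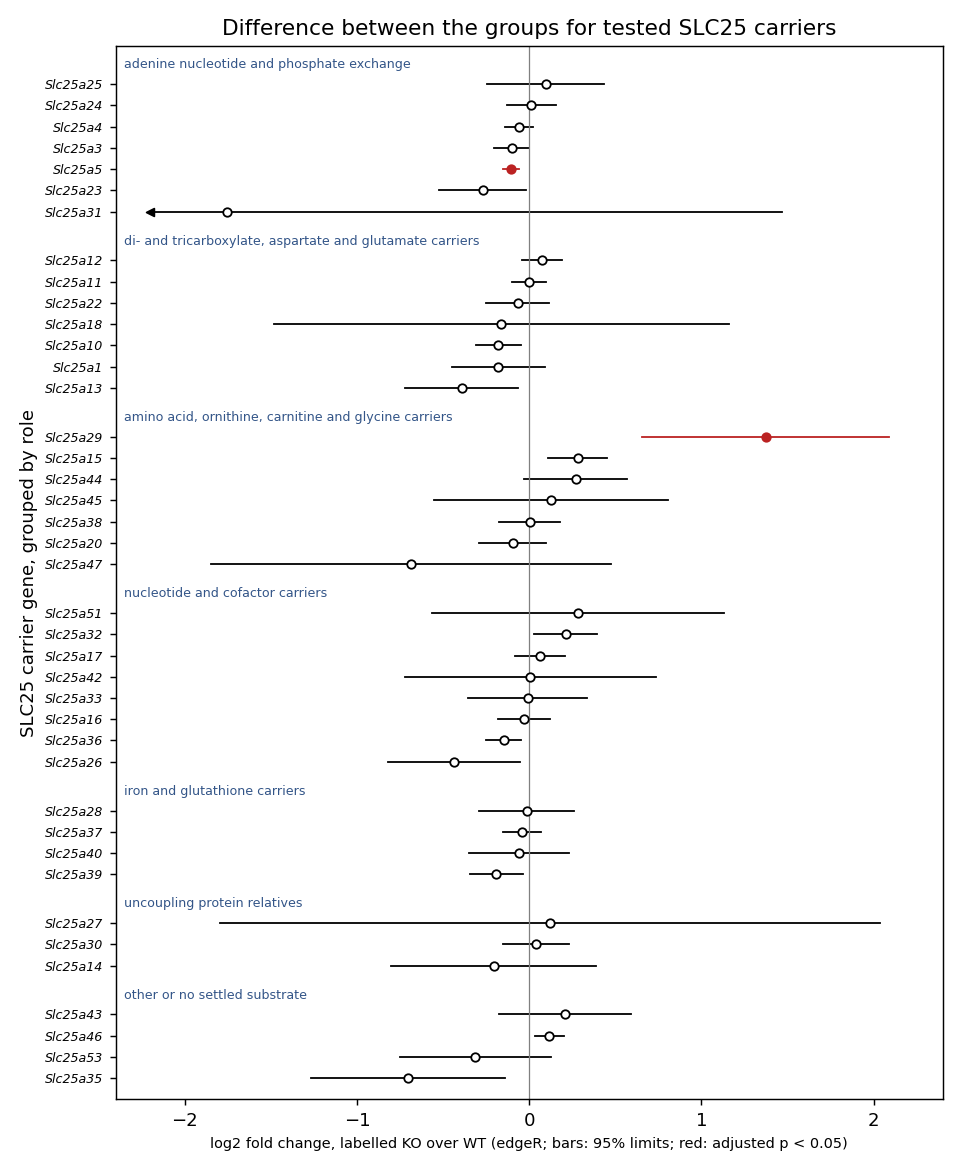
Log2 fold change of the libraries labelled KO over WT for 40 tested carriers, grouped by role, with 95% limits from edgeR as bars (an arrowhead marks a limit outside the axis). Red filled points mark the called carriers shown, Slc25a5 at -0.11 and Slc25a29 at 1.37; open points are not called.

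Sequence features were set beside the whole family as a description. The median density of GGACT in the longest coding transcript was 1.11 per kilobase for the 41 tested carriers and 1.05 for 12545 tested coding genes. It ran from 0, as in Slc25a14, Slc25a18 and Slc25a28, to 2.73 in Slc25a25. Its Spearman correlation with the log2 fold change was 0.18 over the carriers and 0.057 over the coding genes, where genes share libraries and are not independent. RefSeq promoters (GRCm38.p6, 250 bases before to 50 after the start) were at hand for 36 of the 47 members, with 46 promoters. GGGCGG, searched on both strands, occurred in 82.6% of them beside 35.7% of 32851 promoters of all genes, CACGTG, the E-box, in 17.4% beside 7.15%, and TATAAA in 4.35% beside 13.6%. Motifs often linked to genes of mitochondrial proteins were rare in both sets. CCGGAAGT, for ETS factors, was in 1 of the 46 promoters (2.17% beside 3.89%). The palindromic NRF1 motif was in 0% beside 0.971% and a YY1 motif in 0% beside 0.852%. At such low shares over all genes, 46 promoters are too few to tell whether the carriers differ. The carriers' promoters also differed in base composition, with a median G and C content of 59.3% beside 52.7% and 15 beside 7 CpG dinucleotides. Unlike the GGACT comparison, the promoters of all genes were not limited to genes tested here. The shares therefore do not set the carriers apart from other expressed genes. A match is a string of letters and not a bound site.

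Genes that work with the carriers were taken from lists of related function. Beside the counts of each list, edgeR called 7.01% of all tested genes higher and 5.67% lower. Of the family's members under other symbols, Ucp2 was the highest at 63.3, 62.5 and 63.9 FPKM in WT and at 58.3, 64.8 and 57.1 FPKM in the libraries labelled KO. Neither it nor Mtch1 or Mtch2 was called in the reported edgeR test or in DESeq2 (0 of 3 tested). Mtch1 and Mtch2 were below an unadjusted edgeR p of 0.05. Among the alternatives, edgeR called Mtch2 lower over genes with a mean of at least 1 FPKM and Ucp2 lower without KO replicate 2. Of 16 genes that import carrier proteins, 5 had an unadjusted edgeR p under 0.05, beside 26.5% of all tested genes. Their median log2 fold change was 0.11 over the 16, and edgeR called 1 gene higher and none lower. It was Timm8a1, a chaperone of the intermembrane space, at 3.51, 2.79 and 3.84 FPKM in WT and at 5.07, 5.74 and 5.52 FPKM in the libraries labelled KO (log2 fold change 0.67, edgeR adjusted p 0.0238, and 0.0541 to 0.0799 without WT replicate 1 or without any 1 of the libraries labelled KO). Of 21 other mitochondrial transporters and channels, edgeR called 1 higher and 1 lower, with a median of -0.08. An unadjusted edgeR p under 0.05 was found for 6 of the 21. Letm1, a cation exchanger of the inner membrane, rose, with 6.05, 6.07 and 6.01 FPKM in WT and at 7.22, 7.09 and 7.45 FPKM in the libraries labelled KO (log2 fold change 0.25, edgeR adjusted p 0.00625).

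Enzymes that use the carried metabolites gave 35 tested rows, of which 3 rose and 4 fell, with a median log2 fold change of -0.04. Of all tested genes edgeR called 12.7%, 7.01% higher and 5.67% lower. An unadjusted edgeR p under 0.05 was found for 16 of the 35 rows, beside 26.5% of all tested genes. Me1, the cytosolic malic enzyme that makes NADPH from malate, was at 1.22, 1.15 and 1.18 FPKM in WT and at 0.439, 0.459 and 0.467 FPKM in the libraries labelled KO. Its log2 fold change was -1.40 ± 0.11 (SE), with an edgeR adjusted p of 0.00059. Idh1, the cytosolic isocitrate dehydrogenase, fell, with 90.2, 87.5 and 90.7 FPKM in WT and at 69.5, 73.9 and 72.9 FPKM in the libraries labelled KO (log2 fold change -0.33, edgeR adjusted p 0.0015). Acod1, which makes itaconate from aconitate, rose, with 185, 181 and 183 FPKM in WT and at 203, 209.7 and 207 FPKM in the libraries labelled KO (log2 fold change 0.16, edgeR adjusted p 0.00397). Gsr, the glutathione reductase, rose as well, with 52.3, 53.3 and 52.1 FPKM in WT and at 63.3, 60.3 and 62.5 FPKM in the libraries labelled KO (log2 fold change 0.22, edgeR adjusted p 0.00463). Of 11 tested regulators of mitochondrial biogenesis 1 rose and none fell, Ppargc1b, at 2.06, 2.32 and 1.85 FPKM in WT and at 3.16, 3.55 and 3.05 FPKM in the libraries labelled KO (log2 fold change 0.63, edgeR adjusted p 0.0137, and 0.05004 without WT replicate 1). Among 10 inner membrane proteases and prohibitins edgeR called none and DESeq2 1, with 2 below an unadjusted edgeR p of 0.05, and Phb2 stood at 13.9 to 17.4 and 15.3 to 16.8 FPKM.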

How the data were processed

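Poly(A) RNA of 6 libraries was sequenced, per the labels' protocols. The submitters' processing notes name cutadapt 1.9, HISAT2 2.0.4, StringTie 1.3.4d and the mm10 build, without roles or settings. For annotation release and strand setting, the sources used here say nothing. The authors deposited FPKM per gene and library, where a gene with no counts carries 0.0001, and estimated counts per gene as whole numbers, per the file headers. FPKM describes levels, and the deposited estimated counts were tested. Depth was 67280390 to 77997742 counts per library.

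Counts were tested in edgeR 4.0.16 (R 4.3.3) with TMM factors, filterByExpr (minimum count 10, minimum total 15) and the two-sided quasi-likelihood test, adjusted by Benjamini-Hochberg over all 16256 tested genes, threshold 0.05. Standard errors and 95% limits come from the same fit, and fold changes are labelled KO over WT. The procedure was tested on simulated data. Alternatives were DESeq2 1.42.0, median-of-ratios factors, no filter on low counts, a mean of at least 1 FPKM, a replicate block, each library left out, and limma 3.58.1 on log2(FPKM + 0.1) and log2(FPKM + 1). Replicate numbers come from the library titles, and the labels do not say that they pair the libraries; no batch or date is given. Exon overlaps, 31-base words and GGACT were read from GENCODE M21 (GRCm38), in which 39 of the 47 members have the deposited coordinates. Promoter windows are RefSeq's. Tables and figures were made with Python 3.11.15, pandas 2.3.3 and matplotlib 3.10.9.

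Counts cover every member and list gene; 1 carrier and 1 list gene are not reported here. Values in each library are given for the other called members and the highest member of each role, related carriers are set side by side, and of each companion list up to 4 called genes by adjusted p, or else its highest, are named. Further members without overlap, or near the threshold, were named after their values were seen. The members and gene lists were chosen with earlier results of these data known.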

Additional observations from a re-analysis of the deposited data

How the results depend on the processing

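The carriers called numbered 3 in the reported test, 1 with the replicate block (6.23% of all genes were called), 5 in DESeq2 (Slc25a5, Slc25a15, Slc25a35 and Slc25a36 among them) and 1 to 3 with a library left out, with 1 without WT replicate 3. Over all genes the count was 2060, 1012 with the replicate block, 2684 in DESeq2 and 1244 to 1339 with a library left out. With the block the edgeR adjusted p was 0.0684 for Slc25a5 and 0.0967 for Slc25a29. Same-numbered libraries did not deviate together (correlations -0.0205, -0.0144 and 0.0153), so the numbers are taken as names only. Calls among the enzymes were 7, and 11 in DESeq2; among the other transporters 2, 3 in DESeq2, and 1 without the filter on low counts, with the block, in limma and with any 1 library left out; among the import genes 1, 2 in limma, and 0 with the block and without WT replicate 1 or any 1 of the libraries labelled KO.

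Some estimates that were not called took either sign. With a library left out, log2 fold changes ran from -0.017 to 0.033 for Slc25a11, -0.42 to 0.033 for Slc25a14, -0.065 to 0.013 for Slc25a16, -0.46 to 0.15 for Slc25a18, -0.024 to 0.054 for Slc25a24, -0.036 to 0.25 for Slc25a25, -0.36 to 1.46 for Slc25a27, -0.11 to 0.072 for Slc25a28, -0.020 to 0.12 for Slc25a30, -0.12 to 0.066 for Slc25a33, -0.041 to 0.031 for Slc25a38, -0.13 to 0.034 for Slc25a40, -0.20 to 0.26 for Slc25a42, -0.16 to 0.38 for Slc25a45, -0.053 to 0.53 for Slc25a51 and -0.066 to 0.11 for Mettl3. In limma with pseudocounts of 0.1 and 1 they were 0.016 and 0.016 for Slc25a11, 0.010 and 0.0070 for Slc25a33, and 0.0064 and 0.0054 for Slc25a28, and with 0.1 -0.00099 for Slc25a42. Slc25a11 was at 0.00081 in DESeq2, Slc25a38 at -0.0019 among genes with a mean of at least 1 FPKM, and Slc25a42 at -0.046 with the replicate block. The cause of these differences was not tested. Of the 13 carriers that were not called and had a 95% limit beyond 1.5-fold, 7 averaged under 1 FPKM.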

Other observations

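The deposited coordinates put 4 pairs of carriers within 50000 bases of each other. Slc25a29 and Slc25a47 are divergent, with 162 bases between them, and both stayed below 0.3 FPKM. Slc25a23 and Slc25a41 lie on the same strand of chromosome 17 with 2056 bases between them; Slc25a23 was at 0.773 to 1.03 FPKM and Slc25a41 had 0 counts in all 6 libraries. Slc25a24 and Slc25a54, on the same strand of chromosome 3 with 6461 bases between them, stood at 10.1 to 11.4 FPKM and at 0 counts. Slc25a43 and Slc25a5, on the same strand of the X chromosome with 18448 bases between them, were at 1.9 to 2.95 FPKM and at 173 to 188 FPKM. Neighbouring carriers thus stood at unlike levels in 3 of the 4 pairs, given as a description.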
